A study of Mus musculus with 10 samples.

Results

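The heptad is a set of 7 transcription factors, Gata2, Tal1, Lyl1, Lmo2, Runx1, Erg and Fli1, that are known to bind blood stem cell enhancers together. With their cofactors Ldb1 and Cbfb they make 9 genes, taken by name from the 51670 gene models of the deposited expression table. All 9 were found under their Ensembl identifiers, and all 9 passed the filter on low values that left 14727 genes for testing. The libraries came from hematopoietic stem cells of mouse bone marrow, sorted as CD48-CD150+ cells of the LSK gate (lineage-negative, Sca-1-positive, Kit-positive). The treated group was 5 libraries from mice given tunicamycin at 2 mg/kg into the peritoneum, and the control group was 5 libraries from mice given DMSO. Every mouse was wild-type C57BL/6J. Tunicamycin blocks N-linked glycosylation and so loads the endoplasmic reticulum (ER) with unfolded protein. The labels give neither the interval before sorting nor ages nor the number of mice per library, so p-values measure the spread between these libraries, which may be technical.

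The heptad factors belong to a few families that read different DNA letters. GATA2 is a zinc finger protein that binds GATA sites. TAL1 and LYL1 are closely related basic helix-loop-helix (bHLH) proteins that bind E-boxes as dimers with E-proteins. LMO2 does not bind DNA itself and bridges the bHLH and GATA proteins, with LDB1 as the scaffold that can hold distant complexes together. ERG and FLI1 are related ETS proteins. RUNX1 binds DNA with CBFB, a partner that does not touch DNA itself and raises the affinity of RUNX1. Loss of Runx1, Tal1, Lmo2 or Gata2 in the mouse is known to prevent or impair the formation of blood stem cells, and Erg is known to be required to maintain them.

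Of the 9 genes 6 rose after tunicamycin and 0 fell, and 3 did not pass the test. Gata2 and Erg were each a little more than doubled, at 2.13 and 2.16 times the mean level of DMSO libraries. Fli1 stood at 1.79 times, Runx1 at 1.61 times, Cbfb at 1.51 times and Lyl1 at 1.41 times. Tal1, Lmo2 and Ldb1 did not pass, while Gata2 and Lyl1, whose proteins can join the same complex, did. The test was limma on log2(FPKM + 1) over all 14727 genes with Benjamini-Hochberg adjustment, called at an adjusted p under 0.05, where FPKM is a level corrected for the length of a gene and the size of the library. Of all tested genes 45.3% were called in either direction, 29.9% higher and 15.4% lower. The median log2 change was 0.54 over the 9 genes and 0.18 over all tested genes. In Gata2, Erg, Fli1 and Runx1, 4 of the 9 genes, every treated library lay above every DMSO library. That held for 19.2% of all tested genes, and 30.2% had groups that did not overlap in either direction.

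The FPKM sums were 436970 to 477768 in treated libraries and 492963 to 499251 in DMSO libraries. The table holds no read counts, and the read depth behind each value is not given in it. In Tunicamycin replicate 1 every value is a whole number, and all 9 genes lay below their treated group mean there, with a median log2 deviation of -0.35, beside -0.26 over all tested genes. Xist, the RNA of the silenced X chromosome in female cells, was at 28.9 to 35.6 FPKM in treated libraries, against 0.0654 to 32 FPKM in DMSO libraries, where replicates 3 and 5 were under 1 FPKM. Among the other 8 libraries alone, 4 of the 9 genes were called, Gata2, Erg, Fli1 and Runx1, all higher. Over all tested genes 3130 were then higher and 1614 lower, against 4403 and 2261 with all 10 libraries. The treatment was visible in its known targets, with 10 of 10 ER stress genes higher, among them Hspa5, the main ER chaperone, at 969 ± 321 FPKM in tunicamycin and 217 ± 37.7 FPKM in DMSO libraries (SD, n = 5 each), and Ddit3, the stress factor CHOP, with a log2 change of 2.40. All 14 tested immediate early genes were higher, and 10 of 13 mitochondrially encoded genes were lower (6 in libraries with Xist alone and 5 with quantile normalization). Over all tested genes the shares were 29.9% higher and 15.4% lower. Kit, the receptor that defines the gate in part, was at 107 ± 22.9 FPKM in tunicamycin and 101 ± 17.7 FPKM in DMSO libraries (SD, n = 5 each). Slamf1, which encodes CD150, was at 9.77 ± 2.01 FPKM in tunicamycin and 6.01 ± 2.16 FPKM in DMSO libraries, and Procr, the surface receptor EPCR, at 22.4 ± 7.41 FPKM in tunicamycin and 17.2 ± 4.63 FPKM in DMSO libraries. Slamf1 was called higher (adjusted p 0.017 in limma), as was Ly6a, which encodes Sca-1 (0.00349), while Kit (0.761) and Procr (0.298) did not pass. Whether the gate held equally in both groups was not tested.

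Most tested markers of endothelial, megakaryocyte, macrophage, erythroid and stromal cells were called. Most lymphoid, mast cell, basophil, neutrophil and monocyte markers were not. Of all tested genes 29.9% were called higher and 15.4% lower. Of 14 tested endothelial markers 14 were higher (9 in libraries with Xist alone), among them Pecam1 with a log2 change of 1.06, with summed levels of 284 to 627 FPKM in treated libraries and 138 to 230.1 FPKM in DMSO libraries. Of 13 tested megakaryocyte markers 11 were higher, with sums of 1163 to 1793 FPKM in treated and 374 to 886 FPKM in DMSO libraries. Of 15 macrophage markers 14 were higher (sums of 2141 to 6033 FPKM in treated and 572 to 1323 FPKM in DMSO libraries), and of 15 erythroid markers 6 were higher, the globins among them, and 9 lower (6031 to 12431 FPKM in treated and 4455 to 8269 FPKM in DMSO libraries). Of 7 tested mast cell and basophil markers 1 was higher (16.8 to 86.2 FPKM in treated and 7.68 to 35.7 FPKM in DMSO libraries), of 9 stromal markers 7 (322 to 1109.8 FPKM in treated and 32.2 to 253 FPKM in DMSO libraries; 4 of them in libraries with Xist alone), of 6 lymphoid markers 2 (107 to 198 FPKM in treated and 118 to 228 FPKM in DMSO libraries; 1 in libraries with Xist alone) and of 9 neutrophil and monocyte markers 0 (658 to 1708 FPKM in treated and 469 to 2665 FPKM in DMSO libraries). Of those 9, 3 were lower without DMSO replicate 5, and 1 was higher without DMSO replicate 2 or Tunicamycin replicate 1. No marker in these lists was at 0 in all libraries. Gata2, Erg, Fli1, Tal1, Lyl1 and Lmo2 are also known in endothelial cells, Runx1, Fli1 and Gata2 in megakaryocytes and Gata2 in mast cells. The part of such cells in the results below was not tested, and in bulk RNA fewer cells of a type and less RNA per cell cannot be told apart.

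Gata2, the GATA factor of stem and early progenitor cells, and Erg had the largest changes of the 9 genes. Gata2 led on log2(FPKM + 1), while Erg led by the ratio of means and with a pseudocount of 0.1 (log2 changes of 1.11 for Gata2 and 1.13 for Erg) or 0.01 (1.11 and 1.14). Gata2 stood at 122, 138, 154, 133 and 113 FPKM in Tunicamycin replicates 1 to 5, against 52, 87.2, 58.8, 60.1 and 51.8 FPKM in DMSO replicates 1 to 5. The groups did not overlap, and DMSO replicate 2 was the highest of the controls by a wide margin. Its log2 change of 1.10 ± 0.15 (SE; limma, adjusted p 0.000102) was higher than that of 94.4% of tested genes. Gata2 (ENSMUSG00000015053) is a protein-coding gene on the plus strand at chr6:88193891-88207032 (GRCm38, the mm10 build). No leaving-out of a single library and no scaling ended this call.

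Gata1, the GATA factor of the erythroid and megakaryocyte lineages that replaces GATA2 at shared sites during erythroid maturation, went the other way. It fell to 50.5 ± 15.3 FPKM in tunicamycin libraries, against 118 ± 30.1 FPKM in DMSO libraries (SD, n = 5 each), with a log2 change of -1.22 (adjusted p 0.000429 in limma) and no overlap between groups. The log2 ratio of Gata2 to Gata1 within a library was 0.66, 1.82, 1.62, 1.63 and 1.30 in Tunicamycin replicates 1 to 5 and -1.56, -0.19, -0.62, -0.69 and -1.48 in DMSO replicates 1 to 5. Gata2 was thus the more abundant of the pair per length in all treated libraries and Gata1 in all DMSO libraries. The mean ratio differed by 2.32 ± 0.33 (SE) on the log2 scale, with an exact two-sided permutation p of 0.00794, the smallest that 5 against 5 libraries allow. Adjusted over the 7 gene pairs compared in this way it was 0.0556, and no ratio passed at 0.05. With 7 pairs, a pair at the smallest p cannot pass unless other pairs also come near it. Erythroid markers went both ways in the same libraries, with 9 of 15 lower and 6 higher, beside 15.4% lower and 29.9% higher of all tested genes. Klf1, the erythroid factor, and Car1, carbonic anhydrase 1, had log2 changes of -2.26 and -3.18, while the globins Hbb-bs and Hba-a2 had 5.68 and 5.07 and Alas2, an enzyme of heme synthesis, 3.82. Gata3, the GATA factor of T cells, which stem cells also express, was at 15.6 ± 5.01 FPKM in tunicamycin and 8.53 ± 2.58 FPKM in DMSO libraries and was called higher (log2 change 0.76, adjusted p 0.0248), a call lost without any one of DMSO replicates 1, 2 and 4 and Tunicamycin replicates 2, 3 and 5, with equal medians and with no filter. Zfpm1, the GATA1 cofactor FOG1, had 6.44 ± 1.77 FPKM in tunicamycin and 5.13 ± 0.89 FPKM in DMSO libraries (adjusted p 0.208).

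**Figure D1:**
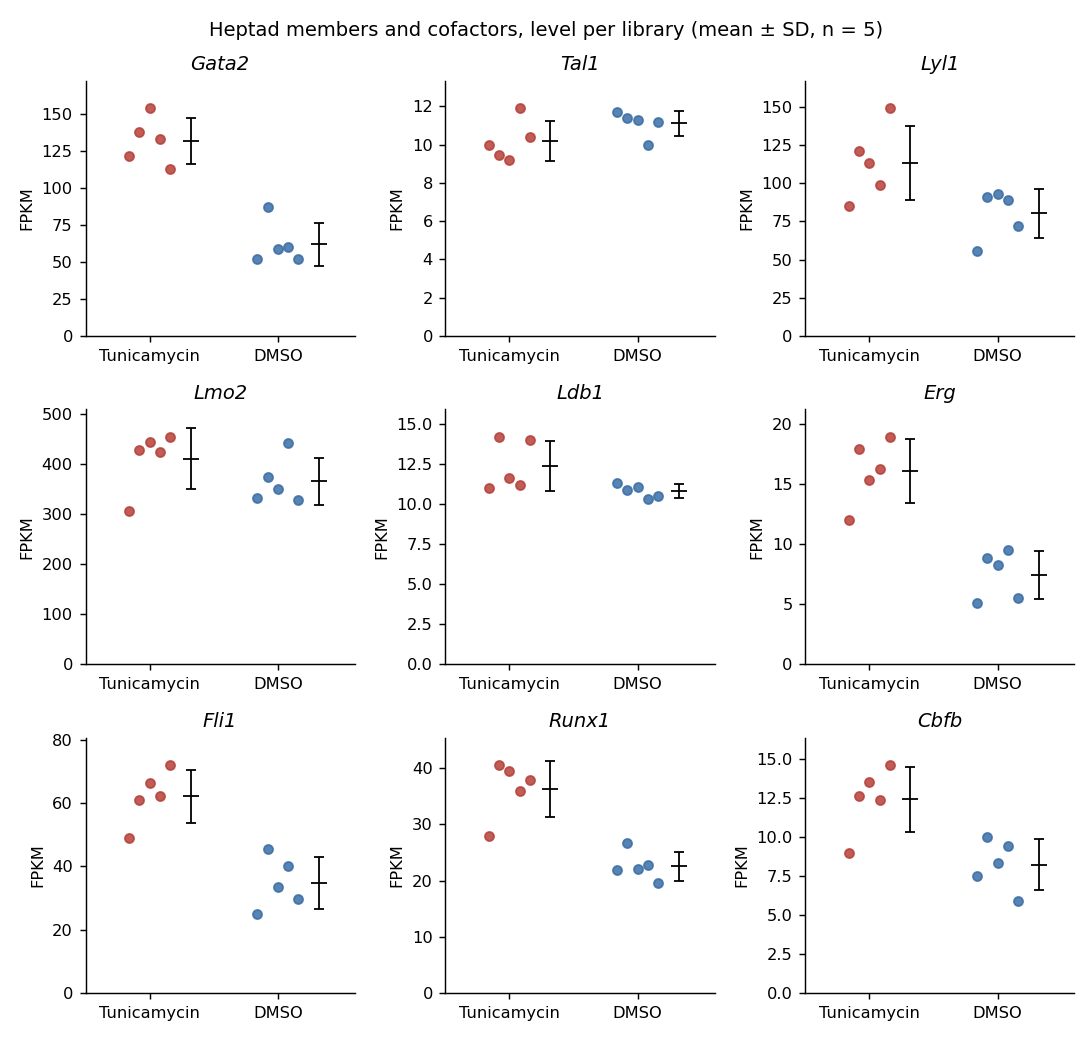
Level of each of the 9 genes in FPKM (y axis, from 0) in every library, with tunicamycin libraries (red) left of DMSO libraries (blue); each point is 1 library in replicate order and the black mark is the mean ± SD of 5. In Gata2, Erg, Fli1 and Runx1 every red point lies above every blue point, and in Tal1, Lmo2 and Ldb1 the groups overlap.

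RefSeq lists 2 start sites for Gata2 (table of build GRCm38.p6), and the window of 250 bases before to 50 after the second start, at chr6:88198414-88198713 on the plus strand, is shown because Gata2 had the highest log2 change of FPKM + 1. Windows were searched on both strands for GATA sites (AGATAA or AGATAG or TGATAA or TGATAG), ETS sites (CGGAAG or AGGAAG), E-boxes (CAGNTG) and RUNX sites (TGTGGT or TGCGGT), and for sequences known from the ER stress response, the ER stress element (CCAAT and CCACG with 9 bases of any kind between them), the CHOP and ATF4 element (TGATGNAA) and the XBP1 and ATF6 element (TGACGTGG). Matches in the windows of these genes did not overlap each other. Capitals mark each match, and a position is that of its leftmost base, counted from 1 at the start site and negative before it. The only match here was an E-box at position 18.
Gata2, start 2: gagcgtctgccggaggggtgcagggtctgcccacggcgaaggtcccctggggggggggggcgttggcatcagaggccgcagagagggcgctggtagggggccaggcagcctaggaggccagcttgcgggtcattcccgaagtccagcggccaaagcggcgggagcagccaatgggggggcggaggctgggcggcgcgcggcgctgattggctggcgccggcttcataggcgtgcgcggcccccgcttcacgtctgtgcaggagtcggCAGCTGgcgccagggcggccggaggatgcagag
The other Gata2 window held no match to any of these motifs. Of 32851 mouse promoter windows of the same length 29.8% held a GATA site, 46.5% an ETS site, 51.4% an E-box and 22.4% a RUNX site, while 0.119%, 3.97% and 0.676% held the ER stress, CHOP and ATF4, and XBP1 and ATF6 elements. A match is a string of letters and not a measured binding site.

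Tal1 and Lyl1 encode the bHLH factors, which are known to stand in for each other in part in adult stem cells. Lyl1 was by far the more abundant. Tal1 was at 10, 9.48, 9.21, 11.9 and 10.4 FPKM in Tunicamycin replicates 1 to 5, against 11.7, 11.4, 11.3, 9.98 and 11.2 FPKM in DMSO replicates 1 to 5. The groups overlapped and the log2 change of -0.11 ± 0.10 (SE) did not pass (adjusted p 0.373 in limma), with a 95% interval of -0.33 to 0.10. With equal medians and with quantile normalization Tal1 was called lower (log2 changes of -0.35 and -0.30, adjusted p 0.0187 and 0.0409), and with scaling to a common sum its change was 0.00. Lyl1 was at 85, 121, 113, 98.7 and 149 FPKM in Tunicamycin replicates 1 to 5, against 55.4, 91.1, 93, 89.3 and 72.2 FPKM in DMSO replicates 1 to 5. Tunicamycin replicate 1 lay within the range of the DMSO libraries and the other treated libraries above it. Lyl1 changed by 0.50 ± 0.18 on the log2 scale (SE; limma, adjusted p 0.0349), and the call was lost without DMSO replicate 1 (adjusted p 0.0873) or 5 (0.0768), without Tunicamycin replicate 2 (0.0778), 3 (0.0633) or 5 (0.0737), among the 8 libraries that have Xist (0.0768), with no filter (0.0998) and with equal medians (0.171).

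The paralogs were set against each other within libraries. The log2 ratio of Tal1 to Lyl1 was -3.33 ± 0.35 in tunicamycin and -2.72 ± 0.36 in DMSO libraries (SD, n = 5 each), a difference of -0.61 with an exact two-sided permutation p of 0.0397, or 0.0926 adjusted over the 7 pairs. The ranges overlapped, at -3.72 to -2.95 in treated and -3.04 to -2.16 in DMSO libraries. Tal1 (ENSMUSG00000028717) lies on the plus strand at chr4:115056426-115071755. Lyl1 (ENSMUSG00000034041) lies on the plus strand at chr8:84701457-84704715 and overlaps Nfix on the opposite strand, which was at 4.38 FPKM in tunicamycin and 3.26 FPKM in DMSO libraries on average. The labels do not say that counting used strand, so reads of overlapping genes cannot be told apart. The RefSeq windows of Lyl1 (chr8:84701207-84701506, plus strand) and of the first of 2 Tal1 starts (chr4:115056176-115056475, plus strand) are shown to compare these paralogs. Lyl1 held an ETS site at position -182 and an E-box at position -235, and Tal1 a GATA site at position -205 and an E-box at position 11.
Lyl1: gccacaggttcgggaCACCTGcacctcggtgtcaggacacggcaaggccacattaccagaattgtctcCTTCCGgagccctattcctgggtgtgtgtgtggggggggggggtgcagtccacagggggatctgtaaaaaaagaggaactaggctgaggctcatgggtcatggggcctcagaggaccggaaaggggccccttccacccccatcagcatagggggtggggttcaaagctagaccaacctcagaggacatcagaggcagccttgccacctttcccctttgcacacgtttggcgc
Tal1, start 1: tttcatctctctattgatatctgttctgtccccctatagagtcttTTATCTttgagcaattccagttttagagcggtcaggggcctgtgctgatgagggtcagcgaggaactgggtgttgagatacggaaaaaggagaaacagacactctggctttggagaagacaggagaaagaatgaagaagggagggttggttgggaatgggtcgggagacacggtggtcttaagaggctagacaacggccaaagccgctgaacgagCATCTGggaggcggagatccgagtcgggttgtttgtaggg
The second Tal1 window held no match.

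E-proteins are the partners that TAL1 and LYL1 need to bind DNA, and ID proteins take E-proteins away from such dimers. The E-protein genes Tcf3, Tcf4 and Tcf12 did not pass. Tcf4 came nearest, at 18.8 ± 4.55 FPKM in tunicamycin and 13.5 ± 1.37 FPKM in DMSO libraries (adjusted p 0.0585). Tcf3 was at 32.9 ± 5.54 FPKM in tunicamycin and 28.5 ± 5.03 FPKM in DMSO libraries (adjusted p 0.281). The log2 ratio of Tal1 to Tcf3 was -1.58 ± 0.26 in tunicamycin and -1.27 ± 0.23 in DMSO libraries (SD, n = 5 each; exact permutation p 0.0873, adjusted p 0.122). All 3 tested Id genes rose, beside 29.9% of all tested genes called higher. That count ranged from 2 to 3 over the alternative runs. Id2 stood at 49.9 ± 15.2 FPKM in tunicamycin libraries and 13.3 ± 3.14 FPKM in DMSO libraries (log2 change 1.80, adjusted p 3.56e-05). Id3 was at 27.3 ± 15.6 FPKM in tunicamycin and 5.81 ± 3.42 FPKM in DMSO libraries and Id1 at 4.48 ± 2.25 FPKM in tunicamycin and 1.4 ± 0.71 FPKM in DMSO libraries, with log2 changes of 2.00 and 1.15. Id4 was under the filter. Of the endothelial markers 14 of 14 were higher too, and of the macrophage markers 14 of 15.

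Lmo2 and Ldb1, the bridge and the scaffold of the complex, did not pass. Lmo2 was the most abundant of the 9 genes in both groups. It was at 306, 428, 444, 424 and 455 FPKM in Tunicamycin replicates 1 to 5, against 333, 374, 351, 442 and 329 FPKM in DMSO replicates 1 to 5. Tunicamycin replicate 1 was the lowest of all 10 libraries, and the other treated libraries lay above DMSO replicates 1, 2, 3 and 5. Tunicamycin replicates 3 and 5 lay just above DMSO replicate 4 too, while 2 and 4 lay below it. Lmo2 had a log2 difference of 0.16 ± 0.14 (SE), adjusted p 0.357 in limma, with a 95% interval of -0.14 to 0.47, and 0.27 without Tunicamycin replicate 1. Ldb1 was at 11, 14.2, 11.6, 11.2 and 14 FPKM in Tunicamycin replicates 1 to 5, against 11.3, 10.9, 11.1, 10.3 and 10.5 FPKM in DMSO replicates 1 to 5. Tunicamycin replicates 2 and 5 stood above the rest. Its log2 change was 0.17 ± 0.10 (SE), adjusted p 0.189, with a 95% interval of -0.05 to 0.39. With equal medians both signs turned, to -0.10 for Lmo2 and -0.07 for Ldb1, and neither passed. Within libraries the log2 ratio of Lmo2 to Ldb1 was 4.94 ± 0.20 in tunicamycin and 4.95 ± 0.21 in DMSO libraries (SD, n = 5 each; difference -0.01 ± 0.13 SE, exact permutation p 0.952).

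Lmo2 (ENSMUSG00000032698) lies on the plus strand at chr2:103957986-103981878 and overlaps 4931422A03Rik on the opposite strand, which averaged 8.74 FPKM in tunicamycin and 7.26 FPKM in DMSO libraries. Ldb1 (ENSMUSG00000025223) lies on the minus strand at chr19:46031570-46045214 and overlaps Pprc1 on the opposite strand, a gene at 7.95 FPKM in tunicamycin and 11 FPKM in DMSO libraries. Of the 10 tested partners of this complex 3 rose and 0 fell, beside 29.9% higher and 15.4% lower of all tested genes. Without Tunicamycin replicate 1, 7 rose, and without Tunicamycin replicate 5, 1 fell. Over all tested genes 4403 rose in the main fit and 5841 without Tunicamycin replicate 1. There 2261 fell in the main fit and 2510 without Tunicamycin replicate 5. Ssbp4, of the family that shields LDB1 from degradation, stood at 42 ± 11.8 FPKM in tunicamycin and 16 ± 3.25 FPKM in DMSO libraries (log2 change 1.32, adjusted p 0.000192). Ssbp2 of the same family was at 58 ± 10.5 FPKM in tunicamycin and 45.4 ± 2.13 FPKM in DMSO libraries (adjusted p 0.06) and Ssbp3 at 11.8 ± 3.45 FPKM in tunicamycin and 16 ± 3.91 FPKM in DMSO libraries (adjusted p 0.0945). Lmo4, a relative of Lmo2 that also binds LDB1, was at 17.7 ± 6.82 FPKM in tunicamycin and 7.79 ± 1.79 FPKM in DMSO libraries (log2 change 1.05, adjusted p 0.00195). Ldb2, the relative of Ldb1 that endothelial cells are known to express, rose to 5.06 ± 2.83 FPKM in tunicamycin libraries, against 1.32 ± 0.771 FPKM in DMSO libraries (log2 change 1.31, adjusted p 0.00402), beside the endothelial markers, 14 of 14 of which were higher.

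Erg and Fli1, the ETS members, rose together. Erg was at 12, 17.9, 15.3, 16.2 and 18.9 FPKM in Tunicamycin replicates 1 to 5, against 5.12, 8.8, 8.26, 9.51 and 5.49 FPKM in DMSO replicates 1 to 5. All treated libraries lay above all DMSO libraries, and Tunicamycin replicate 1 was the lowest of the treated. Erg changed by 1.04 ± 0.17 on the log2 scale (SE; limma, adjusted p 0.000462). Fli1 was at 49, 60.9, 66.4, 62.2 and 71.9 FPKM in Tunicamycin replicates 1 to 5, against 24.8, 45.6, 33.3, 40 and 29.7 FPKM in DMSO replicates 1 to 5. Its groups came close, with Tunicamycin replicate 1 just above DMSO replicate 2, without overlap. Fli1 changed by 0.84 ± 0.16 on the log2 scale (SE; limma, adjusted p 0.00112). Fli1 stood above Erg in every library, with a log2 ratio of Erg to Fli1 of -1.89 ± 0.12 in tunicamycin and -2.09 ± 0.16 in DMSO libraries (SD, n = 5 each). The difference of 0.20 had an exact permutation p of 0.0635, or 0.111 after adjustment.

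Erg (ENSMUSG00000040732) lies on the minus strand at chr16:95359169-95586593 and Fli1 (ENSMUSG00000016087) on the minus strand at chr9:32422204-32542861. Fli1 overlaps 6 other gene models, of which the antisense model Gm27201 was the most abundant, at 21.3 FPKM in tunicamycin and 14.9 FPKM in DMSO libraries on average, and its reads cannot be told from those of Fli1 without strand. RefSeq lists 3 starts for Erg, and the window of the third (chr16:95459299-95459598, minus strand) is shown because, of the 14 windows of these genes, only this one and the third of Ldb1 held a GATA site, an ETS site and an E-box. They lay at positions -103, -40 and -217.
Erg, start 3: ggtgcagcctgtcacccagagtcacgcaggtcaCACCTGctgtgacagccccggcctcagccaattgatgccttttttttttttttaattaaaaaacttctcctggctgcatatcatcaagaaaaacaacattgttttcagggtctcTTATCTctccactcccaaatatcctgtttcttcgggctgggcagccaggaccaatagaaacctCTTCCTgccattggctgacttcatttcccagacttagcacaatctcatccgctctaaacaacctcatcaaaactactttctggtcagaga
The other Erg windows held no match.

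Of the 12 other ETS genes tested 8 rose and 0 fell, against 29.9% and 15.4% of all tested genes, with a median log2 change of 0.52. With equal medians and in libraries with Xist alone 5 rose, and with equal medians 1 fell. Over all tested genes 3037 rose with equal medians and 3130 in libraries with Xist alone, against 4403 in the main fit. With equal medians 3972 fell, against 2261 in the main fit. Spi1, which encodes PU.1, the ETS factor of myeloid and B cells, stood at 101 ± 24.3 FPKM in tunicamycin and 33.7 ± 11.9 FPKM in DMSO libraries (log2 change 1.59, adjusted p 0.000184). Of the macrophage markers 14 of 15 were higher too. Spi1 was at 79, 116, 91, 81.4 and 135 FPKM in Tunicamycin replicates 1 to 5. Cd68, the macrophage marker with the smallest adjusted p, was at 475, 352, 269, 212 and 417 FPKM in the same libraries. Replicate 1, the library of whole numbers, had the lowest Spi1 of the treated libraries and the highest sum of macrophage markers, at 6033 FPKM. Replicates 2 to 5 ranked in the same order for Spi1 and Cd68. The part of such cells in the Spi1 change was not tested. Elf1 was at 77.1 ± 10.2 FPKM in tunicamycin and 46.1 ± 6.85 FPKM in DMSO libraries, with a log2 change of 0.73. Ets1, an ETS factor of endothelial cells and lymphocytes, was at 14.9 ± 5.04 FPKM in tunicamycin and 7.32 ± 0.654 FPKM in DMSO libraries, with a log2 change of 0.88. Elf4, known to govern how readily stem cells enter the cycle, was at 10.1 ± 1.55 FPKM in tunicamycin and 6.34 ± 1.23 FPKM in DMSO libraries, with a log2 change of 0.60. Gabpa, a broadly expressed ETS factor, was at 9.92 ± 1.23 FPKM in tunicamycin and 10.5 ± 0.892 FPKM in DMSO libraries and did not pass (adjusted p 0.614).

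Runx1 and Cbfb, the subunits of core binding factor, both rose. Runx1 was at 28, 40.5, 39.4, 35.9 and 37.9 FPKM in Tunicamycin replicates 1 to 5, against 21.8, 26.7, 22, 22.7 and 19.5 FPKM in DMSO replicates 1 to 5. Tunicamycin replicate 1 stood just above DMSO replicate 2, again without overlap. Runx1 changed by 0.66 ± 0.12 on the log2 scale (SE; limma, adjusted p 0.000866). Cbfb was at 9, 12.6, 13.5, 12.4 and 14.6 FPKM in Tunicamycin replicates 1 to 5, against 7.5, 9.98, 8.31, 9.43 and 5.88 FPKM in DMSO replicates 1 to 5. Tunicamycin replicate 1 lay within the DMSO range and the other treated libraries above it. Cbfb changed by 0.54 ± 0.15 on the log2 scale (SE; limma, adjusted p 0.0114), and the call was lost in libraries with Xist alone (log2 change 0.42, adjusted p 0.0755). The log2 ratio of Runx1 to Cbfb was 1.48 ± 0.11 in tunicamycin and 1.36 ± 0.14 in DMSO libraries (SD, n = 5 each; exact permutation p 0.167, adjusted p 0.194). The log2 ratio of Gata2 to Runx1 was 1.84 ± 0.20 in tunicamycin and 1.40 ± 0.17 in DMSO libraries, with an exact permutation p of 0.0159 and an adjusted p of 0.0556 (SD, n = 5 each).

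**Figure D2:**
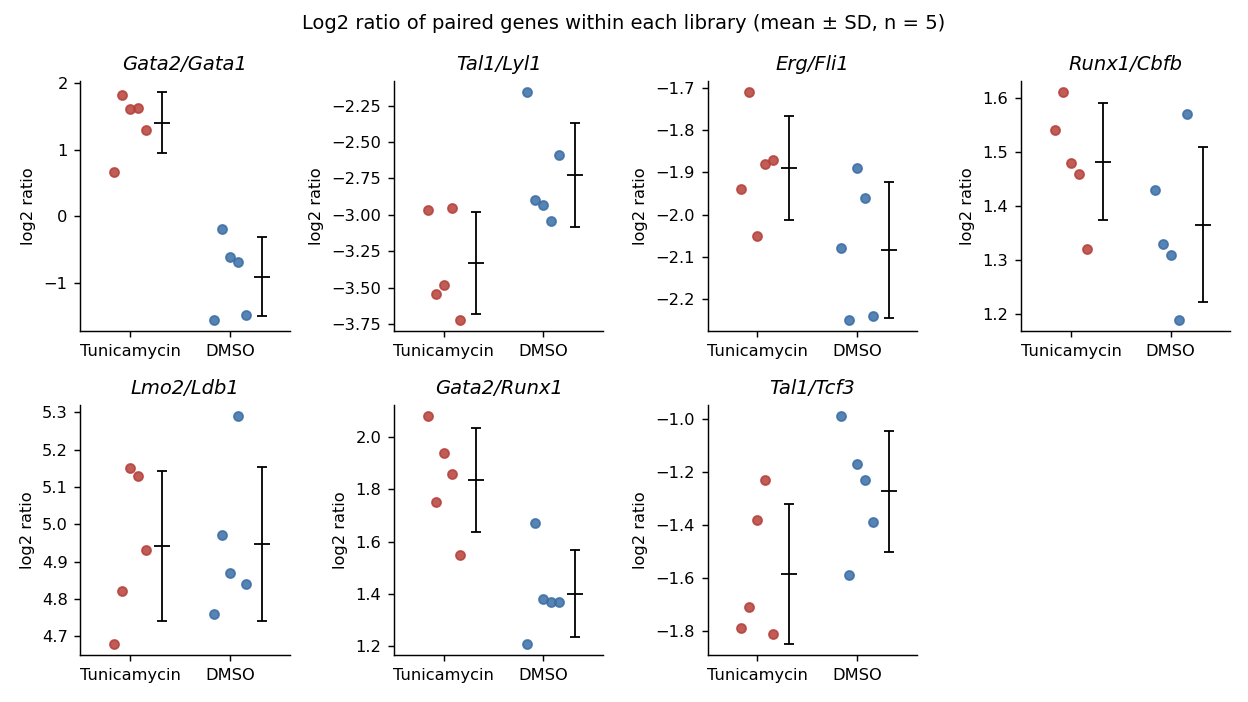
Log2 ratio (y axis, each panel on its own scale, not from 0) of the FPKM + 1 of 2 genes within each library, for the 7 pairs compared, with tunicamycin libraries (red) left of DMSO libraries (blue); points are libraries and black marks the mean ± SD of 5. The pair Gata2 and Gata1 is the only one of the 7 whose groups do not overlap.

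Runx1 (ENSMUSG00000022952) lies on the minus strand at chr16:92601466-92826149 and overlaps the antisense model Gm26626, which averaged 1.44 FPKM in tunicamycin and 0.929 FPKM in DMSO libraries. Cbfb (ENSMUSG00000031885) lies on the plus strand at chr8:105170674-105217989 and overlaps small RNA models of low level. The first of 2 RefSeq windows of Runx1 (chr16:92826025-92826324, minus strand) is shown because it was the only one of the 14 windows to hold RUNX sites. These lay at positions 29 and 37, on the strand opposite to the gene, with an ETS site at -124 and E-boxes at -167 and -136.
Runx1, start 1: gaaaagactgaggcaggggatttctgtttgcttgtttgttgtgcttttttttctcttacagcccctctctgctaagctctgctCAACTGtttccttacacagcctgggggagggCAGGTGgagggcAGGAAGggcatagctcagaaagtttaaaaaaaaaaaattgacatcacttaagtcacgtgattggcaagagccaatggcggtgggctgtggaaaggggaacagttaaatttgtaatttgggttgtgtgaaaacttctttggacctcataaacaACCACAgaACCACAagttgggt
The second Runx1 window held no match, and the Cbfb window held 2 ETS sites. None of the 14 windows held an ER stress, CHOP and ATF4, or XBP1 and ATF6 element, which says only that these letters are not in these windows. The table gave windows for 7 of the 9 genes, and none for Lmo2 and Fli1. The relatives Runx2 and Runx3 did not pass. Runx2 was at 14.2 ± 2.99 FPKM in tunicamycin and 10.4 ± 1.67 FPKM in DMSO libraries (adjusted p 0.0562), and Runx3 at 18.7 ± 2.22 FPKM in tunicamycin and 16.5 ± 1.64 FPKM in DMSO libraries (adjusted p 0.252). Without Tunicamycin replicate 1, 1 of these relatives was called higher. The same count held with equal sums, among genes of at least 5 mean FPKM, with every value cut to a whole number and with the replicate number as a block. With a weight per library in limma, 2 were called higher. Over all tested genes 4403 rose in the main fit, 5841 without Tunicamycin replicate 1 and 6328 with weights.

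**Figure D3:**
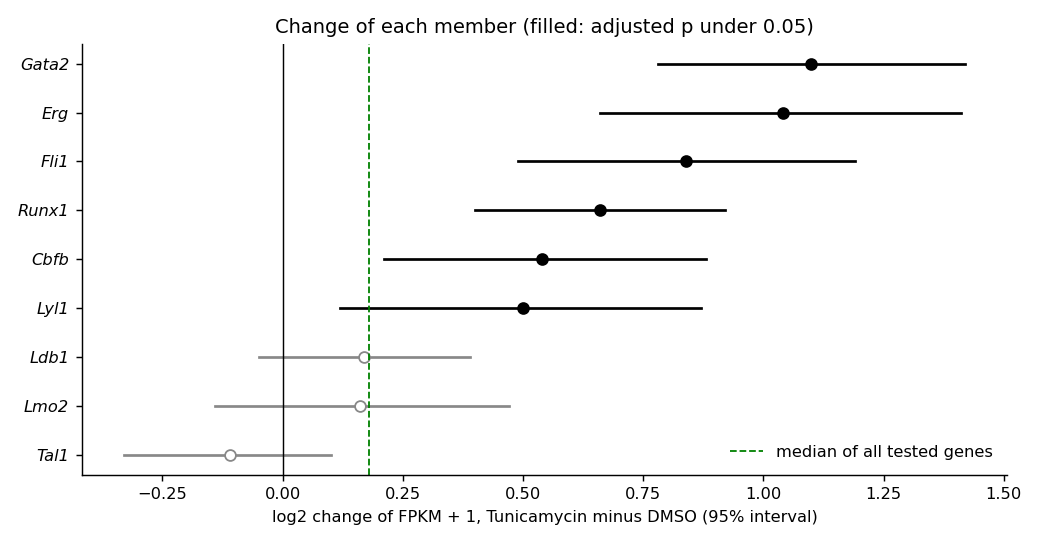
Log2 change of FPKM + 1, tunicamycin minus DMSO (x axis), of the 9 genes, with 95% intervals from limma; filled points passed at an adjusted p under 0.05 and open points did not, and the dashed line is the median of all 14727 tested genes, 0.18. The intervals of Tal1, Lmo2 and Ldb1 include 0.

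The order of the levels shifted with these changes. In tunicamycin libraries the order of mean FPKM was Lmo2, Gata2, Lyl1, Fli1, Runx1, Erg, Cbfb, Ldb1 and Tal1, and in DMSO libraries Lmo2, Lyl1, Gata2, Fli1, Runx1, Tal1, Ldb1, Cbfb and Erg. Erg ranked above Cbfb, Ldb1 and Tal1 in tunicamycin libraries, at 16.1 ± 2.66 FPKM, and was the lowest of the 9 in DMSO libraries, at 7.43 ± 2.0 FPKM (SD, n = 5 each). Neighbours in this order whose ranges overlapped were Gata2 and Lyl1, Erg and Cbfb, Cbfb and Ldb1, and Ldb1 and Tal1 in tunicamycin libraries. In DMSO libraries they were Lyl1 and Gata2, Fli1 and Runx1, Tal1 and Ldb1, and Cbfb and Erg. Gata2 was above Lyl1 in 4 of 5 treated libraries, while Lyl1 was above Gata2 in 5 of 5 DMSO libraries.

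Corepressors are recruited to DNA by these factors. Of 12 tested corepressor genes 3 fell and 0 rose, beside 15.4% lower and 29.9% higher of all tested genes, with a median log2 change of -0.10. Of the 12, 3 rose without Tunicamycin replicate 1 and with every library scaled to the same sum, 2 rose without DMSO replicate 1 and 1 rose without Tunicamycin replicate 4, and 6 fell with equal medians. Over all tested genes 4403 rose in the main fit. In those runs 5841 rose without Tunicamycin replicate 1, 5481 with equal sums, 3792 without DMSO replicate 1 and 3739 without Tunicamycin replicate 4. With equal medians 3972 fell, against 2261 in the main fit. Hdac1, a histone deacetylase, was at 76.6 ± 7.27 FPKM in tunicamycin and 109 ± 10.3 FPKM in DMSO libraries (log2 change -0.51, adjusted p 0.00196). Gfi1b, a repressor that erythroid and megakaryocyte cells require, was at 71.2 ± 19.3 FPKM in tunicamycin and 119 ± 26.1 FPKM in DMSO libraries (log2 change -0.75, adjusted p 0.00738), beside 9 of 15 erythroid markers lower and 6 higher, and 11 of 13 megakaryocyte markers higher. Mta2, a subunit of the NuRD complex, was at 81.3 ± 2.7 FPKM in tunicamycin and 98.7 ± 6.53 FPKM in DMSO libraries (log2 change -0.27, adjusted p 0.0247). Irf2bp2 was nearest of the others, with a log2 difference of 0.37 (adjusted p 0.0571). Cbfa2t3, which encodes ETO2, the repressor bound to the TAL1 complex, was at 19.1 ± 4.72 FPKM in tunicamycin and 14.3 ± 1.99 FPKM in DMSO libraries and did not pass (adjusted p 0.0649).

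Genes that the heptad is known to bind were called in either direction about as often as all tested genes. Of 19 tested target genes 7 rose, 2 fell and 10 did not pass, against 29.9% higher and 15.4% lower of all tested genes, with a median log2 change of 0.29. Itga2b, the integrin CD41 of megakaryocytes and early blood cells, was at 166 ± 22.6 FPKM in tunicamycin and 65.6 ± 16.8 FPKM in DMSO libraries (log2 change 1.35, adjusted p 6.73e-05). It is also a megakaryocyte marker, and 11 of 13 of those were higher. Vav1, a signalling protein of blood cells, was at 79.9 ± 8.59 FPKM in tunicamycin and 47.8 ± 9.16 FPKM in DMSO libraries (log2 change 0.75, adjusted p 0.000949). Spi1, which rose, and Gata1, which fell, are also in this list. Kit did not pass (log2 change 0.07, adjusted p 0.761). Of 12 stem cell markers 8 rose and 0 fell, beside 29.9% higher and 15.4% lower of all tested genes. That count was 5 with no filter, without DMSO replicate 5 or without Tunicamycin replicate 2, 3 or 4. It came to 4 among the 8 libraries that have Xist and with quantile normalization, and to 3 with equal medians. Its range over all runs was 3 to 11. Over all tested genes 4403 rose in the main fit and 3294 to 3739 in those runs without a single library. Among the 8 libraries 3130 rose, with equal medians 3037, with quantile normalization 3425 and with no filter 3375. Ctnnal1, which encodes alpha-catulin, had a log2 change of 1.02 (adjusted p 0.000114) and Ly6a, which encodes Sca-1, of 0.60 (adjusted p 0.00349). Hoxb5, a homeobox gene that marks stem cells, had a log2 change of 0.72 (adjusted p 0.0138). Ly6a is also an interferon-responsive gene that endothelial cells express.

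**Figure D4:**
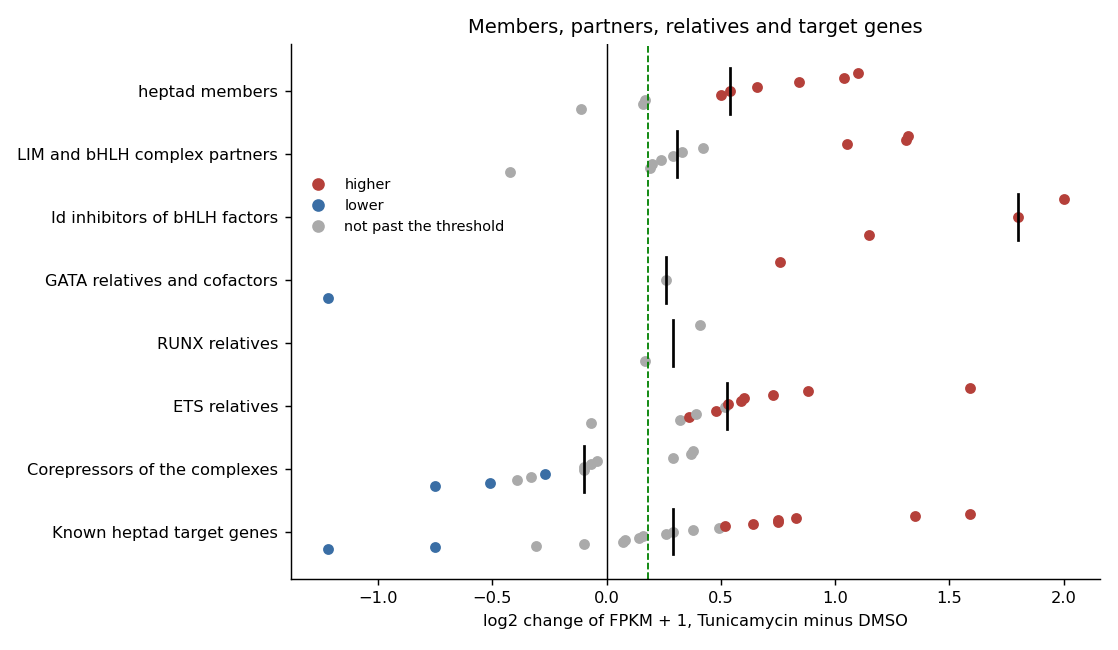
Log2 change of FPKM + 1, tunicamycin minus DMSO (x axis), of each tested gene in the 9 genes and in the lists of partners, relatives and target genes (rows); red genes were called higher, blue lower and grey did not pass, the black bar is the row's median and the dashed line the median of all tested genes. All 3 Id genes are red, and the corepressors hold 3 blue genes and no red one. Of all 14727 tested genes 29.9% were called higher and 15.4% lower.

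By the likeness of its pattern over all 10 libraries, Gata2 was closest to Vps37c, Il10ra and Arhgap45, with Pearson r of 0.99, 0.99 and 0.98 on log2(FPKM + 1), among 5915 tested genes of at least 10 mean FPKM. With group means subtracted the closest genes were Vps37c, Il10ra and Sh2b1 (0.93, 0.93 and 0.92). Il10ra, the receptor for interleukin 10, stood at 17.8 ± 1.76 FPKM in tunicamycin and 5.74 ± 1.6 FPKM in DMSO libraries (SD, n = 5 each). Tal1, the gene with the lowest log2 change, had no match of that closeness, with Polr1e, Snora17 and Thoc1 at r of 0.77, 0.76 and 0.74, and Polr1e, Gm45435 and Topbp1 at 0.85, 0.74 and 0.71 with group means subtracted. These values describe 10 libraries in 2 treatment groups and were picked as the highest of many.

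Scaling moved the 9 genes by unequal amounts, and quantile normalization gave Gata2, Lyl1 and Lmo2 higher and the other 6 lower values than the deposited scale. The median log2 change of all tested genes was 0.18 as deposited, 0.31 with every library scaled to the same sum (TPM), -0.04 with equal medians and -0.01 with quantile normalization, and the share of calls that were higher was 66.1%, 76.4%, 43.3% and 47.6%. Relative to that median, Gata2 changed by 0.92 as deposited and by 0.88 to 1.14 under the other scalings. Erg changed by 0.86 as deposited and by 0.84 to 0.90, Fli1 by 0.66 and 0.62 to 0.81, Runx1 by 0.49 and 0.45 to 0.57, Cbfb by 0.37 and 0.34 to 0.39 and Lyl1 by 0.32 and 0.27 to 0.56. Tal1 stood at -0.29 as deposited and at -0.31 to -0.29, below the median of all tested genes each time. Lmo2 stood at -0.01 as deposited and at -0.06 to 0.32 under the other scalings.

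**Figure D5:**
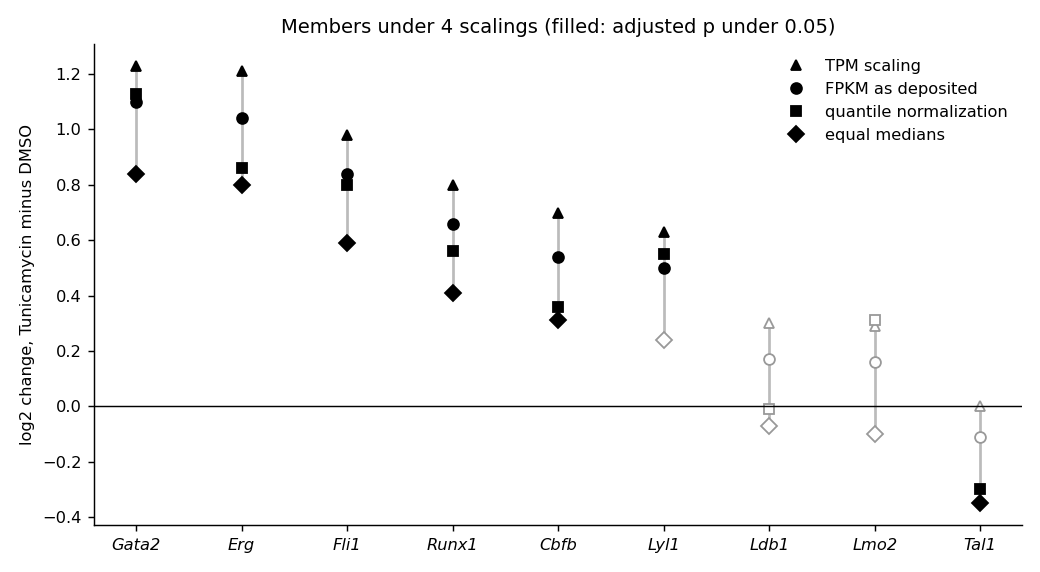
Log2 change of FPKM + 1, tunicamycin minus DMSO (y axis), of the 9 genes under 4 scalings (triangle, equal sums; circle, as deposited; square, quantile normalization; diamond, equal medians); filled black marks passed at an adjusted p under 0.05 and open grey marks did not. Gata2, Erg, Fli1, Runx1 and Cbfb passed as higher under all 4, Lyl1 under 3, and Tal1 passed as lower under 2.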

How the data were processed

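The authors deposited 1 table of FPKM values per gene model and library. The submitters' processing notes name the build mm10 and HTSeq, DESeq2, Cufflinks 2.1.1 and Bowtie 0.12.9, without saying which step each served. Tunicamycin replicate 1 is deposited as whole numbers, a score by its unit since no source says how they were made; they are printed, averaged and fitted here as FPKM, as the table names them. Per the labels' protocols, RNA was amplified by Geo-seq and made into libraries with a Vazyme TruePrep kit. FPKM is not a count, so no count test was run, and no depth is given.

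Identifiers were matched to GENCODE M21 symbols (51389 of 51670). Genes with at least 1 FPKM in at least 5 of 10 libraries were tested with limma 3.58.1 in R 4.3.3 (mean-variance trend, group as the only term) on log2(FPKM + 1), a scale that understates changes of low genes. The fit was tested on simulated data. Ratios used exact two-sided permutation tests over all assignments of 5 and 5 libraries. Python 3.11.15, pandas 2.3.3 and matplotlib 3.10.9 made tables and figures.

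Members and lists were chosen with earlier results of these data known. Named genes are the 9 members, both genes of each ratio, up to 4 genes per list with the smallest adjusted p, the genes most like Gata2 and Tal1 in pattern, and the check genes; others named beside them were chosen after their values were seen. Some genes that the rule names are not reported here. Promoters are from RefSeq, build GRCm38.p6.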

Additional observations from a re-analysis of the deposited data

Results flagged for a closer look

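In groups of 5 libraries, 50 groups were checked for a library far from the others (a gap over 0.71 of the group's range), and 5 had one. Chance flags about 1 in 20 groups. Gata2 stood at 87.2 FPKM in DMSO replicate 2, against 51.8 to 60.1 FPKM in the other DMSO libraries. Without that library the log2 change of Gata2 was 1.23. Tal1 stood at 9.98 FPKM in DMSO replicate 4, against 11.2 to 11.7 FPKM in the other DMSO libraries. Lmo2 stood at 306 FPKM in Tunicamycin replicate 1, the library of whole numbers, against 424 to 455 FPKM in the other treated libraries. The summed mast cell and basophil markers were 86.2 FPKM in Tunicamycin replicate 2, against 16.8 to 22.6 FPKM in the other treated libraries. Gata2, which mast cells also express, was at 138 FPKM in that library and 113 to 154 FPKM in the other treated libraries. The summed stromal markers were 1109.8 FPKM in Tunicamycin replicate 5, against 322 to 386 FPKM in the other treated libraries.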

How the results depend on the processing

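Gata2, Erg, Fli1 and Runx1 were called higher under every alternative run. Across the 198 alternative fits of the 9 genes, 183 kept direction and side of the threshold. The count of higher members was 6, or 4 in libraries with Xist alone and 5 to 6 with single libraries left out; with equal medians and with quantile normalization 1 member was lower, Tal1 (-0.35 and -0.30). With equal sums Tal1 was at 0.00. Lyl1 lost its call with equal medians (0.24), in libraries with Xist alone (0.53) and with no filter (0.50), and ranged from 0.37 to 0.59 with single libraries left out. Cbfb lost its call in libraries with Xist alone (0.42). Lmo2 turned with equal medians (-0.10), and Ldb1 with equal medians (-0.07) and quantile normalization (-0.01). Of the ratios, quantile normalization brought Gata2 to Gata1 (2.33), Tal1 to Lyl1 (-0.86) and Gata2 to Runx1 (0.57) past the threshold and turned Lmo2 to Ldb1 (0.32), which ranged from -0.06 to 0.08 with single libraries left out. The exact permutation p of Gata2 to Gata1 was 0.00794 in both runs. Its adjusted p went from 0.0556 to 0.0185 because Tal1 to Lyl1 and Gata2 to Runx1 then also reached 0.00794. Over all tested genes, 4403 were higher and 2261 lower, against 2824 higher among genes of at least 5 mean FPKM, where fewer genes were tested, 3972 lower with equal medians and 3767 lower with quantile normalization. In libraries with Xist alone 3130 were higher and 1614 lower. With the replicate number as a block, Lyl1 had an adjusted p of 0.0182 and Cbfb of 0.0159, and the block changed no call of the 9 genes, while 1 of the RUNX relatives and 3 mast cell and basophil markers were then called higher. Deviations from the group means correlated at 0.02 to 0.25 between same-numbered libraries, and not every library correlated best with its own number, so the numbers were not taken to pair them. The block was not run for ratios, where 5 pairs cannot reach an exact p under 0.05, nor were other settings that act on the limma fit alone. The cause of each of these shifts was not tested. No read depth is given, so no counting error is attached to any value.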

Other observations

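Within groups, the libraries that were high for one of the 9 genes tended to be high for others, with exceptions in Tal1 and Ldb1. With group means subtracted, the 28 pairs without Tal1 had a median Pearson r of 0.68 over 10 libraries (range -0.11 to 0.89), and 0.58 (range -0.22 to 0.85) without Tunicamycin replicate 1. Erg and Lyl1 (0.89), Erg and Fli1 (0.88) and Runx1 and Cbfb (0.88) were the closest. The 8 pairs with Tal1 lay between -0.27 and -0.10, and between -0.51 and -0.16 without Tunicamycin replicate 1. Without that library Ldb1 had r of -0.12 with Lmo2, -0.08 with Fli1 and -0.22 with Gata2, against 0.31, 0.16 and -0.11 with it. These are descriptions of values that share libraries and their scaling, and no other gene pairs were compared. All tested genes also shifted by library, with median log2 deviations of -0.26 to 0.19 in treated and -0.02 to 0.04 in DMSO libraries.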
